A study of Mus musculus with 6 samples.

Results

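Strong contacts listed only at 6 h are pairs of 5 kb bins on the same autosome that entered the authors' list of significant Hi-C interactions after 6 h of retinoic acid and were listed neither before treatment nor at 48 h. A member had bins 20 to under 1000 kb apart, a count of 0 in all T0 and T48 columns, and a count in both T6 libraries of at least 2 times the lowest count listed for that library at the same distance. The rule chose 7257 pairs of 2,710,982 autosomal pairs in that distance range and of 3,654,014 pairs in the deposited table. The cells were P19, a mouse embryonal carcinoma line, either untreated (T0) or given all-trans retinoic acid (ATRA) at 1e-06 M. The treated cells were taken after 6 h (T6) or after 48 h (T48), with 2 Hi-C libraries per time point. All groups grew as monolayers on gelatine. Untreated cells of the later times are not among the samples, so an effect of ATRA and one of time cannot be told apart. Nothing in the labels says that the replicates were separate cultures, and p-values therefore reflect a spread between libraries that may be technical.

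Hi-C fixes chromatin, cuts it, joins DNA ends that lie close together in the nucleus and counts the junctions by paired sequencing. Counts fall steeply as the distance along the chromosome grows, so a contact can only be called strong against others of the same distance. Contacts at the distances studied here include those between promoters and distant enhancers and those held by CTCF and cohesin. ATRA acts through the nuclear receptors RAR and RXR, which bind DNA and change transcription within hours, and it drives P19 cells towards neurons.

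A 0 in the table means that the pair is missing from the list of that time point, and it is no measured absence of contact. Both libraries of a time point were always above 0 or at 0 together, and lists have no replicate error. The counts of all listed pairs summed to between 23,005,786 and 50,156,906 per library, which is not the sequencing depth. Values of T6 chose the members, so their T6 counts and their absence from the other lists are given as a description, without a test.

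The members were a small part of what was listed at 6 h. They made up 1.22% of the 596,207 pairs listed only at T6 (95% Wilson interval 1.19 to 1.25%, counting error only). They were also 13.8% of the 52,635 T6 pairs over the threshold. Of all 1,073,618 pairs listed at T6 in the distance range, 55.5% were listed at no other time. Of the T6 pairs over the threshold, 34,050 (64.7%) were listed at T0 and T48 too, 7670 (14.6%) at T0 but not T48, and 3658 (6.95%) at T48 but not T0. The same rule turned to the other time points gave 9715 pairs at T0 (1.27% of T0-only pairs) and 12,203 at T48 (1.70% of T48-only pairs), so 6 h had the fewest.

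Member counts were low. The median was 12 read pairs in T6 replicate 1 and 8 in replicate 2, and the lowest was 6 in both. The lower of a pair's multiples in the replicates was exactly 2 in 4069 members (56.1%), at least 3 in 294 (4.05%) and at least 4 in 24, with a maximum of 6.17. At the edge of the rule, a pair of chromosome 1 between 4,472,500 and 4,787,500 (bin centres) had counts of 8 and 6 against lowest listed counts of 4 and 3. Just outside it, a pair of chromosome 2 between 131,762,500 and 131,782,500 had counts of 39 and 26 against 20 and 12, a lower multiple of 1.95.

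The lowest listed counts differed little between time points. Over the 196 distances, those of T6 were never above those of the T0 or T48 library of the same replicate number, and they were below them at 11 to 36 distances. All 7257 members had counts at or above the lowest counts listed at T0 and T48 for their distance, and 4757 (65.6%) reached 2 times those as well. The sums of listed counts differed between libraries, whose sequencing depth is not given. What a member's count would have been at T0 or T48 is not in the table.

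The strongest member, by the lower multiple, was found on chromosome 5 between 14,982,500 and 15,122,500 (bin centres), where T6 replicates 1 and 2 had 37 and 419 read pairs. The next lay on chromosome 7 between 16,247,500 and 16,377,500, with 41 and 36. On chromosome 5, the pair between 105,012,500 and 105,242,500 had 25 and 36. The lowest counts listed at these distances were 4 to 7, so these pairs stood 5 to 6.17 times above them in the weaker library. The first pair stood 104.75 times above the lowest count in replicate 2, and such unequal replicates recurred among the 20 strongest.

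The chromosome 13 pair between 50,182,500 and 50,817,500 had 13 and 123 read pairs. The chromosome 8 pair between 19,682,500 and 20,007,500 had 16 and 277. In these pairs and the first of chromosome 5, replicate 2 held most of the reads although its library has the smaller sum, and the cause was not tested. Over all members, replicate 2 exceeded replicate 1 by more than 3 times in 48 (0.661%), against 0.100% of T6-only pairs under the threshold and 1.60% of strong T6 pairs that were also listed elsewhere. It was 0.216% in the T0 counterpart and 0.352% in that of T48.

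The other strong members had similar counts in both libraries. On chromosome 14, the pair between 99,542,500 and 99,702,500 had 35 and 20 read pairs and that between 107,597,500 and 107,737,500 had 30 and 20. On chromosome 7, the pair between 135,507,500 and 135,847,500 had 25 and 15. Further pairs at 4.5 times or more were those of chromosome 13 between 61,977,500 and 62,697,500 (15 and 22), chromosome 16 between 3,112,500 and 3,352,500 (24 and 32), chromosome 9 between 42,327,500 and 42,757,500 (19 and 16) and chromosome 3 between 15,577,500 and 15,747,500 (28 and 35). All 20 lay on 12 chromosomes, with distances of 30 to 720 kb.

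**Figure D1:**
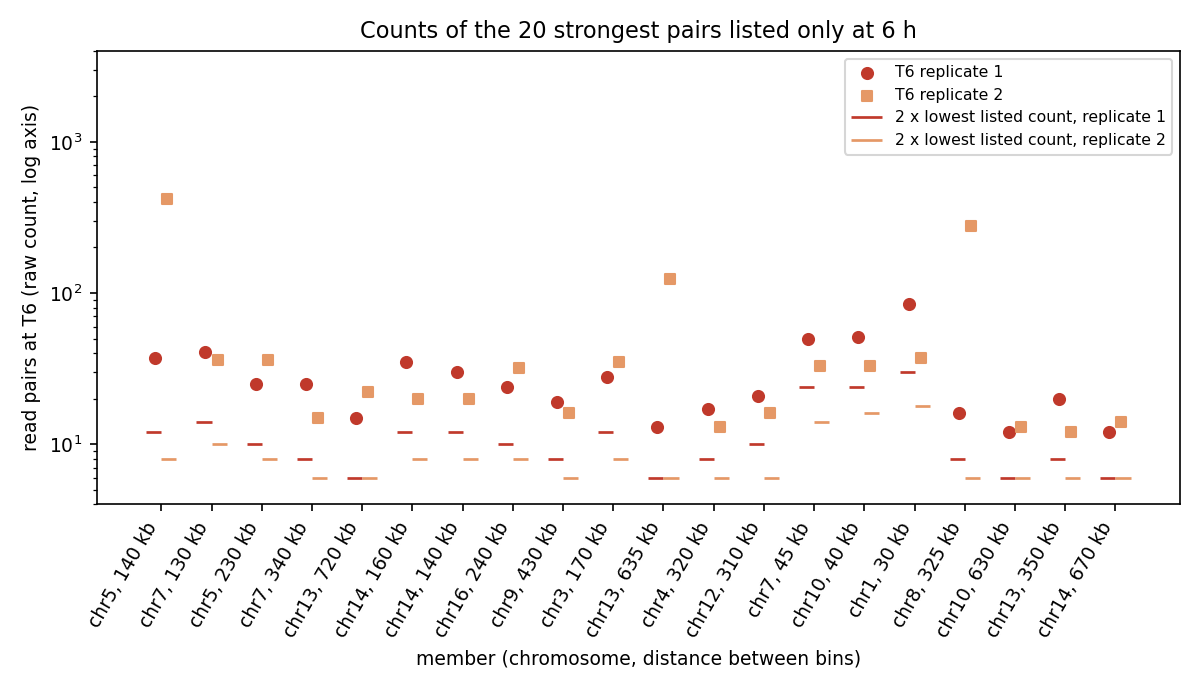
Raw T6 counts (log axis) of the 20 strongest members, at most 1 per 500 kb, in replicate 1 (circles) and replicate 2 (squares), with short lines at 2 times the lowest listed count of each library at that distance. All points lie above their lines because the rule required it, and 3 pairs (chromosomes 5, 13 and 8) have a replicate 2 count of 419, 123 and 277 beside 37, 13 and 16 in replicate 1.

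The longest members were near the detection limit. The longest, at 995 kb, lay on chromosome 12 between 75,552,500 and 76,547,500 with 6 and 6 read pairs. Those of chromosome 15 between 6,792,500 and 7,782,500 had 6 and 8, and those of chromosome 14 between 111,227,500 and 112,212,500 had 10 and 6. At 980 kb, the pair of chromosome 13 between 92,057,500 and 93,037,500 had 11 and 6 and that of chromosome 16 between 63,862,500 and 64,842,500 had 6 and 6. The lowest listed count was 3 in both libraries at these distances, so each of the 5 was at exactly 2 times in at least 1 replicate.

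Most T6-only pairs with a high count in 1 T6 library did not have one in the other. Of 53,873 T6-only pairs at 2 times or more in replicate 1, 13.5% reached 2 times in replicate 2 (95% Wilson interval 13.2 to 13.8%), against 6.07% of the other T6-only pairs. Of 40,159 chosen on replicate 2, 18.1% reached 2 times in replicate 1, against 8.38%. For pairs listed at all 3 time points the same shares were 48.0% and 66.7%. The list requires a count in both libraries, which shapes all of these shares.

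Members were longer than most listed pairs. Their median distance was 285 kb (quartiles 150 and 420 kb), against 200 kb for T6-only pairs under the threshold and 145 kb for strong T6 pairs also listed elsewhere. The median was 275 kb for the T0 counterpart and 365 kb for the T48 counterpart. Members were 0.381% of T6-only pairs at 20 to 50 kb (340 pairs) and 1.73% at 300 to 500 kb (2037 pairs). From 500 to 1000 kb the share was 1.33% at T6, 1.45% at T0 and 2.38% at T48. Among strong T6 pairs, those listed at no other time rose from 4.21% at 20 to 50 kb to 29.97% at 500 to 1000 kb. The share rose over the whole T6 list too. There, 89,349 of 249,665 listed pairs were T6-only at 20 to 50 kb, and 103,518 of 131,409 at 500 to 1000 kb. The lowest listed count falls with distance, in T6 replicates 1 and 2 from 20 and 12 at 20 kb to 3 and 3 at 750 kb. The median counts of members fell with it, from 34 and 21 read pairs at 20 to 50 kb to 7 and 7 from 500 kb.

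**Figure D2:**
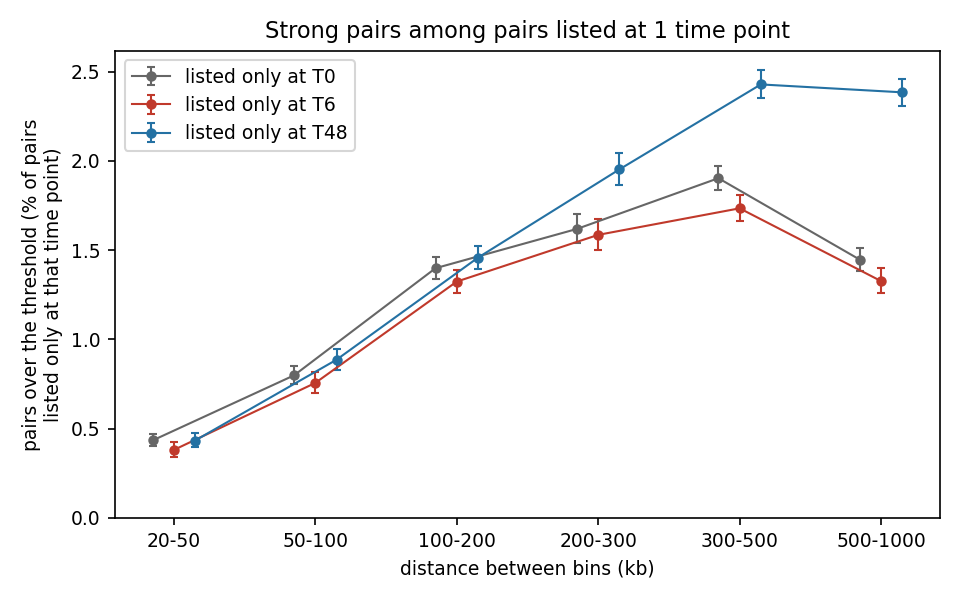
Share of pairs over the threshold among pairs listed at 1 time point, by distance class, with 95% Wilson intervals that cover counting error only. The T6 share climbs from 0.381% at 20 to 50 kb to 1.73% at 300 to 500 kb, and from 500 kb it lies at 1.33% beside 2.38% at T48.

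A minority of the pairs around members was listed at each of the 3 time points. Each pair has 8 adjacent pairs, made by moving either bin by 1. Adjacent pairs that were members themselves were counted, and by the rule these were listed at T6 only. Within 2 bins of another member lay 403 members (5.55%). Of the pairs adjacent to members, 15.6% were in the T0 list, 14.8% in that of T6 and 13.1% in that of T48. The T6 list was the shortest, with 1,073,618 pairs in the distance range against 1,290,986 at T0 and 1,180,199 at T48, so these shares do not give an order of the time points. Per 100,000 listed pairs, a scaling added after the data were seen, they were 1.21, 1.38 and 1.11 percentage points. At 200 to under 500 kb the shares were 14.5%, 13.6% and 12.8% around members, 6.53%, 5.85% and 5.69% around T6-only pairs under the threshold, and 44.1%, 42.2% and 42.4% around strong T6 pairs listed elsewhere too. Members thus lay between those sets in each list. Per 100,000 listed pairs of that distance, the shares around members were 4.11, 4.47 and 3.69 percentage points. Around the T0 counterpart 19.03% of adjacent pairs were listed at T0 and 15.6% at T6, which is 1.47 and 1.45 percentage points per 100,000 listed pairs. Around the T48 counterpart 17.6% were listed at T48 and 11.8% at T6, or 1.49 and 1.10 on that scale. In each of the 3 sets the list of the set's own time point thus gave the highest share for its length, at T0 by a small margin. Pairs of a set that lie side by side add to its own list only, and these shares have no replicate error. Single-time pairs under the threshold also had their own list highest. Around strong pairs also listed elsewhere, the T6 list was highest on this scale over all distances. It gave 3.95 against 3.52 in the T0 list around those of T0, and 3.91 against 3.89 in the T48 list around those of T48. The last order was reversed at 200 to under 500 kb, with 13.75 in the T6 list and 13.80 in the T48 list. A T6 maximum is thus not particular to members.

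**Figure D3:**
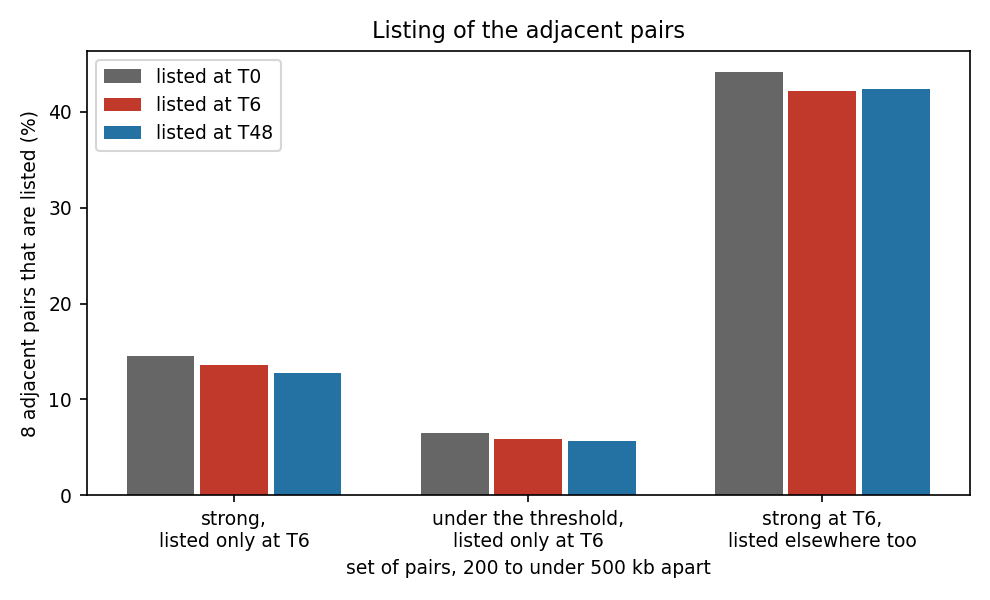
Share of the 8 adjacent pairs that were listed at T0, T6 and T48 around 3 sets of pairs 200 to under 500 kb apart. Around members it was 14.5, 13.6 and 12.8%, read in lists of 352,931, 304,623 and 345,343 pairs of that distance, against about 6% around T6-only pairs under the threshold and over 42% around strong T6 pairs that were also listed elsewhere.

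Of the members, 4792 (66.0%) had a pair listed at T0 or T48 within 1 bin, and 2465 (34.0%) had none. In 1915 (26.4%) no adjacent pair was listed at any time point. At least 3 adjacent T6 pairs with none at T0 or T48 were found around 12 members. The most adjacent T6 pairs, 5, were found on chromosome 4 between 53,742,500 and 53,932,500, with counts of 16 and 9. Within 2 bins that member had 7 listed pairs at T6, 2 at T0 and 2 at T48. The chromosome 5 member between 114,672,500 and 114,842,500 had 3 adjacent T6 pairs. Within 2 bins it had 7 listed pairs at T6 and 0 at T0 and T48. These were chosen after their values were seen.

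Members rarely lay side by side. Within 2 bins of each other, 403 members formed 195 groups, and 6854 (94.4%) stood alone. The largest groups held 4. On chromosome 6, 4 members joined bins from 100,227,500 to 100,252,500 with the bin at 100,322,500. Their listed neighbours within 2 bins, summed over the 4 members, were 23 at T6, 6 at T0 and 0 at T48. On chromosome 14, 4 joined the bin at 13,462,500 with bins from 13,537,500 to 13,552,500, with sums of 13 at T6 and 0 at T0 and T48. On chromosome 13, the group between 37,552,500 and 38,037,500 to 38,057,500 had sums of 49 at T6, 44 at T0 and 56 at T48. A pair near more than 1 member counts more than once in these sums. Members of a group also count as each other's neighbours, by the rule at T6 only, so the sums do not compare the time points.

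The members used 12,972 anchor bins, of which 11,826 (91.2%) held 1 member, 239 held 3 or more and 34 held 5 or more. The bin of chromosome 9 centred on 42,757,500 and that of chromosome 14 centred on 13,462,500 anchored 15 members each. The chromosome 9 bin had 48, 113 and 39 listed pairs at T0, T6 and T48, and the chromosome 14 bin had 40, 96 and 32. On chromosome 6, the bin at 100,322,500 (10 members) went from 4 to 60 and back to 3 listed pairs, and its neighbouring bins stayed at 5, 5 and 3 on the left and 6, 6 and 1 on the right. The larger number at T6 thus sat in a single 5 kb bin, with partners on both sides. These bins were chosen for having the most members, which count at T6 and in no other list. More listed pairs at T6 are therefore partly built into the choice.

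The remaining bins named for their members were chosen in the same way, and they also had the most listed pairs at T6. The bin of chromosome 6 at 108,437,500 had 20, 67 and 19, that of chromosome 2 at 131,782,500 had 25, 92 and 28, and that of chromosome 10 at 18,537,500 had 5, 49 and 3. On chromosome 1, the bin at 51,902,500 had 14, 49 and 2, that at 188,387,500 had 11, 55 and 4, and that at 69,892,500 had 4, 56 and 5. The bin of chromosome 8 at 114,962,500 had 74, 95 and 8, so it was listed often at T0 as well. None of the 10 anchored a strong pair listed only at T0 or only at T48. Of all member anchors, 17.2% did so for T0 and 16.0% for T48, against 5.09% and 5.86% of all bins listed at T6. Member anchors also had more listed pairs, with medians of 11, 11 and 10 at T0, T6 and T48. Over all bins listed at T6 these medians were 7, 5 and 6, and the shares were not adjusted for this. Bins of 5 or more numbered 63 in the T0 counterpart and 74 in that of T48, which also have more pairs.

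The short-range counts of these bins often differed between libraries of the same time point. Counts of pairs 5 to 15 kb apart that were listed at all 3 time points lie outside the rule, and were scaled to the sum of such counts in each library (counts per 1e+06, CPM). In the chromosome 6 bin at 100,322,500 T0 had a CPM of 9.30 and 10.2, T6 one of 24.8 and 24.8, and T48 one of 9.77 and 11.3. In the chromosome 10 bin at 18,537,500 it was 11.7 and 11.1, then 33.7 and 33.5, then 11.4 and 11.8. In these bins both T6 libraries were high and all the others low.

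In the other 8 bins at least 1 T0 or T48 library reached 0.75 of the T6 mean. The chromosome 9 bin had a T0 CPM of 23.8 and 8.57, a T6 CPM of 27.1 and 24.8 and a T48 CPM of 8.75 and 9.85, so T0 replicate 1 was near T6. The chromosome 14 bin had 7.75 and 19.5, then 22.5 and 19.5, then 7.68 and 21.1, with replicate 2 high throughout. The chromosome 6 bin at 108,437,500 had 12.5 and 33.2, then 35.8 and 33.6, then 13.2 and 41.3, which is the same order.

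The same was seen over all bins with many members. Of the 34 bins with 5 or more, 32 had a T6 short-range count of at least 100 over both libraries. The 4 T0 and T48 libraries gave 128 values for these bins, of which 84 were under 0.5 of the bin's T6 mean, 39 were at 0.75 or above, and 5 lay between. In 27 bins at least 1 T0 and 1 T48 library was under 0.5, against 0.210% of the 247,214 autosomal bins that passed the same limit of 100. That limit was set on the T6 libraries alone. At 0.4 in place of 0.5, a limit added after the data were seen, 11 bins were. T48 replicate 1 was under 0.5 in 28 bins, T48 replicate 2 in 16, T0 replicate 1 in 18 and T0 replicate 2 in 22. Over all 247,214 bins the shares in that order were 0.392%, 0.394%, 0.252% and 0.585%. In 9 of the 32 bins all 4 libraries were, against 0.00728% of all bins, and in 22 of the 32 at least 1 of the 4 was at 0.75 or above. At T0, 17 of the bins had 1 replicate under 0.5 and the other at 0.75 or above, and at T48, 14 had. The bins were chosen by their T6 pairs, so no test was made, and the cause of the steps between libraries was not tested. They were unevenly spread, with 15 of the 34 on chromosome 1 and 7 on chromosome 6.

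**Figure D4:**
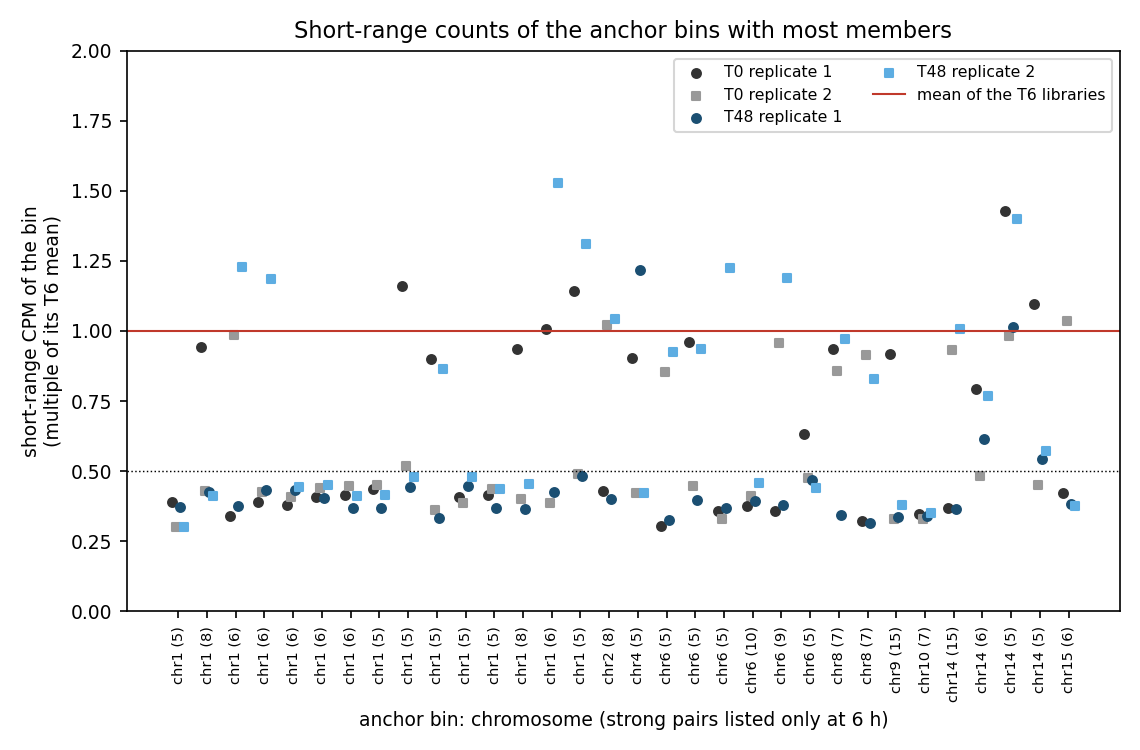
Short-range CPM of the 32 anchor bins with 5 or more members in each T0 and T48 library, as a multiple of the bin's T6 mean (line at 1; dotted line at 0.5). Points fall into a lower band, with 84 of 128 under 0.5, and an upper band, with 39 at 0.75 or above, and replicates of 1 time point often lie in different bands.

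Most members had no such anchor. Of 6265 members with a measured anchor, 339 (5.41%) had a bin that was under 0.5 of its T6 mean in at least 1 T0 and 1 T48 library, and 72 (1.15%) a bin that was so in all 4. The first share was 0.806% for T6-only pairs under the threshold and 2.98% for strong T6 pairs listed elsewhere too. The 34 bins together held 221 members (3.05%).

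No 50 kb window was called at 6 h by edgeR with time point as the only term. The short-range counts were summed over 47,924 windows and tested with edgeR's quasi-likelihood test. For T6 over T0, 0 windows were called (0% of all, with 864 at an unadjusted p under 0.05 and 12 called by DESeq2), and so 0 of the 9968 windows that hold a member's anchor. For T48 over T0, 9 windows were called (0.0188%), of which 2 held anchors, both lower at T48. For T48 over T6, 10 were called (0.0209%), of which 5 held anchors, all lower at T48. With any 1 of the 6 libraries left out, calls of both contrasts with T48 were lost, also where that library was outside the contrast. Such a fit has fewer residual degrees of freedom, so the loss does not show that a call rests on 1 library. The rule used T6 against both other times, so the counts for those contrasts are not evidence on the members.

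The window of the chromosome 10 bin, from 18,500,001 to 18,550,000, had a T0 CPM of 40.8 and 41.5, a T6 CPM of 68.4 and 67.0 and a T48 CPM of 40.03 and 41.3. The window was reached through a bin chosen by its T6 pairs, so the order of its libraries is no evidence of a change. For this window the log2 ratio of T48 over T6 was -0.74 (SE 0.069, edgeR adjusted p = 0.0474), and that of T6 over T0 was 0.72 (SE 0.068, edgeR adjusted p = 0.138). The first was a call, but not in the fits with 1 library left out, where the test is also weaker. The window of the chromosome 6 bin, from 100,300,001 to 100,350,000, had 19.3 and 20.3, then 34.5 and 36.03, then 18.04 and 21.98. It was chosen the same way, and its log2 ratio of T6 over T0 was 0.83 (SE 0.106, edgeR adjusted p = 0.398), which is no call. In the windows of the other 8 named bins, the edgeR adjusted p of T6 over T0 was 0.9999 each and the log2 ratio between 0.18 and 0.40.

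Contacts that stayed listed near members had a median change close to 0. Within 2 bins of a member, 3898 pairs were listed at all 3 time points and tested. Their median log2 ratio of T6 over T0 was 0.026, against -0.00014 over all 153,761 tested autosomal pairs of the same distance range. The median of T48 over T6 was -0.066, against -0.027, and that of T48 over T0 was -0.060, against -0.031. edgeR called 0 of 496,203 pairs in each contrast (0%), so 0 near members. An unadjusted p under 0.05 was given to 181 pairs near members for T6 over T0 (4.64%, against 3.32% over all tested pairs of the range), to 308 for T48 over T0 (7.90% against 5.96%) and to 322 for T48 over T6 (8.26% against 5.45%). No test was made of these differences in share. Within replicates 1 and 2 the median of T6 over T0 near members was 0.031 and 0.028, against -0.010 and 0.018 in all pairs of that range. Both time contrasts share libraries, so they are not separate evidence.

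Chromosome 14 held more members than any other chromosome, and its distal part accounted for this. It carried 1104 members (15.2%) but 5.60% of the T6-only pairs. From 70,000,000 to its end, a boundary set after the data were seen, 944 members (13.0%) came from 3.18% of the T6-only pairs. Members were 4.97% of T6-only pairs there (95% Wilson interval 4.67 to 5.29%), 1.11% in the proximal part, and 0.957 to 1.26% on the 18 other autosomes. In pieces of 5 Mb, the 11 distal pieces ranged from 3.04 to 7.25%, against a median of 1.03% over the others, of which the highest had 3.44%.

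The excess of distal chromosome 14 was present at all times. The share over the threshold was 5.27% of T0-only and 4.27% of T48-only pairs there. At T6 the region also listed fewer short pairs, with higher counts. At 5 kb it had 32.9 listed pairs per 100 bins at T6, with median counts of 105.5 and 50, against 52.2 to 58.7 per 100 bins on the 18 other autosomes, where the medians were 72 to 78 and 36 to 39. The gap was narrower at 15 kb, with 18.3 listed pairs per 100 bins there and 24.2 on the other autosomes at T6, and 26.1 and 27.2 at T48. On chromosome X, which the rule leaves out, there were 33.4 per 100 bins at 5 kb and T6 with medians of 109 and 46. Whether this thinner listing plays a part in the members of the region was not tested. Members there had fewer adjacent pairs listed, with 7.30%, 6.94% and 6.09% at T0, T6 and T48, against 16.9%, 16.0% and 14.2% for all other members.

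**Figure D5:**
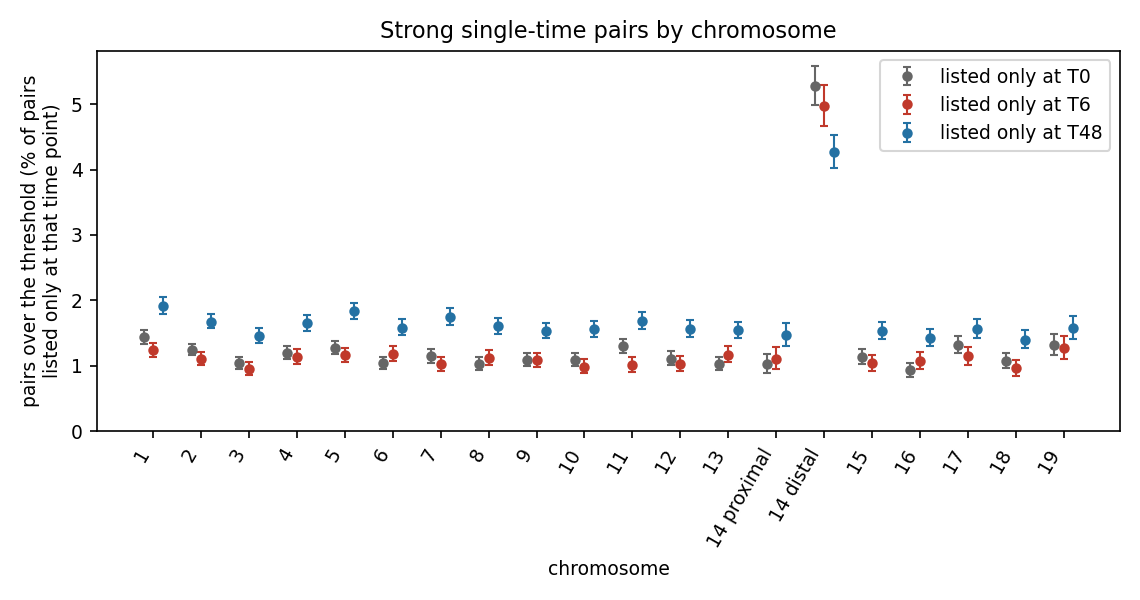
Share of pairs over the threshold among pairs listed at 1 time point, by autosome with chromosome 14 split at 70,000,000, with 95% Wilson intervals that cover counting error only. Distal chromosome 14 stands at 5.27, 4.97 and 4.27% at T0, T6 and T48, while the T6 share of all other autosomes lies between 0.957 and 1.26%.

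Chromosome 1 held 6.71% of the members and 6.59% of the T6-only pairs, and members were 1.24% of its T6-only pairs, within the range of the 18 autosomes other than 14. It also held 16.3% of all strong T6 pairs, so its share of strong T6 pairs that were listed only at T6 was low, at 5.67%, where the highest of these autosomes had 22.5%. The corresponding shares of chromosome 1 were 7.38% at T0 and 10.3% at T48, also the lowest of these autosomes.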

How the data were processed

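Hi-C libraries of P19 cells (3 time points, 2 replicates each) were grouped by sample titles. The authors deposited raw counts of read pairs per library for pairs of 5 kb bins, per the file headers, and the sources used here name these as significant interactions found in both replicates. CASAVA 1.8.2, Bowtie2 and build mm9 are named in the submitters' processing notes. The restriction enzyme, interaction caller, its threshold and any coverage correction are not given in the sources used here. Counts were not corrected for bin coverage.

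The lowest count above 0 was taken per library and distance over the 19 autosomes, and members were those at 2 times or more in both T6 libraries. Members, lists, boundaries and tests were chosen with earlier results of these data known. The members named were the 20 with the highest lower multiple and the 10 anchor bins with most members (each at most 1 per 500 kb), the 5 longest, and 3 pairs on each side of the threshold. Genes and gene lists were left out, and no sequence is printed, since no mm9 genome or annotation was used here.

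Windows (short pairs listed at all 3 time points, each counted once at its middle) and single pairs were tested with edgeR 4.0.16 (TMM, filterByExpr, quasi-likelihood F test, 6 libraries in 1 fit, two-sided, Benjamini-Hochberg at 0.05) in R 4.3.3. Both fits were tested on simulated data. With 2 libraries against 2, no exact permutation test can go below p = 0.333. Wilson intervals reflect counting error alone and treat pairs as independent, although pairs share anchor bins, so they may be too narrow. DESeq2 1.42.0, other thresholds, a replicate block and fits without 1 library were alternatives.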

Additional observations from a re-analysis of the deposited data

Results flagged for a closer look

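In 5 windows of 50 kb with anchors of strong 6 h pairs, the change from T0 differed between 48 h and 6 h, by the edgeR test of T48 over T6. On chromosome 1 the log2 ratios were -0.98 from 122,150,001 to 122,200,000 (1 anchor, edgeR adjusted p = 0.0228), -0.82 from 122,500,001 (2 anchors), -0.83 from 174,200,001 (5 anchors) and -0.95 from 132,450,001 (4 anchors), the last 3 with an edgeR adjusted p = 0.0445. On chromosome 10 it was -0.74 from 18,500,001 (7 anchors, edgeR adjusted p = 0.0474). These calls did not hold when any 1 of the 6 libraries was left out. Such fits have fewer residual degrees of freedom, so this does not show that a call rests on 1 library. The members were chosen on the same T6 libraries.

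The rule leaves out chromosome X and pairs of 1 Mb and more, where strong T6-only pairs were also found. They made up 4.06% of T6-only pairs on chromosome X (1596 pairs), near the 4.97% of distal chromosome 14, with 4.78% at T0 and 4.02% at T48. Of autosomal T6-only pairs of 1 Mb and more they were 0.874% (272 pairs), with 0.942% at T0 and 1.83% at T48.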

How the results depend on the processing

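The number of members followed the threshold. It was 40,719 at 1.5 times the lowest listed count, 294 at 3 times, 2465 with no T0 or T48 pair within 1 bin, and 4757 where 2 times the lowest counts of T0 and T48 was required too. It ranged from 40,159 to 53,873 where the multiple was required in 1 T6 replicate alone. A lowest count per chromosome or a 1st percentile gave the same 7257 members. At each distance and in each library the lowest count was the same on all 19 autosomes and was held by at least 6.92% of the listed pairs. The adjacent shares at T0, T6 and T48 were 14.01%, 12.7% and 11.4% at 1.5 times, 18.4%, 18.03% and 15.3% at 3 times, 13.4%, 12.5% and 11.5% over the 24 pairs within 2 bins, and 16.9%, 16.0% and 14.2% without distal chromosome 14. Without members in bins of 3 or more they were 16.0% at T0 and 13.6% at T48. With 1 T6 replicate alone they ranged from 11.3 to 11.6%, 10.2 to 10.7% and 9.46 to 9.57%. The median distance was 200 kb at 1.5 times, 320 kb at 3 times, and 265 to 315 kb with 1 replicate alone. Chromosome 14 held most members in all of these, with 10.04% at 1.5 times, 21.1% at 3 times and 9.83 to 11.01% with 1 replicate alone, but without its distal part the highest share was 7.89%, on chromosome 2. For windows, T6 over T0, T48 over T0 and T48 over T6 gave 12, 72 and 67 calls with DESeq2. They gave 8354, 11,595 and 14,499 where short pairs not listed at a time point entered as 0, which follows from that setting's construction. Windows of 25 kb gave 18 for T48 over T0. Leaving out 1 library gave 0, 0 to 4, and 0 calls. The replicate block gave 12, 139 and 89 window calls, among them the T6 over T0 windows of the chromosome 10 and chromosome 6 bins (edgeR adjusted p = 0.0134 and 0.0198 with the block), and 0 calls of pairs near members. Replicate deviations correlated at 0.438 to 0.551 between time points, but with 2 numbers and no shared origin in the labels a pairing was not established. Bins of 5 or more members that were low in at least 1 T0 and 1 T48 library numbered 11 rather than 27 at 0.4 of the T6 mean. The settings without distal chromosome 14, without bins of 3 or more members, with the counts of T0 and T48, the 0.4 limit and the block on pairs were chosen after seeing the data. Median counts of 12 and 8 read pairs per member limit any statement on a single pair.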
